A study of Mus musculus with 11 samples.

Results

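Heat shock proteins, the chaperonins and their cochaperones were followed in 3 tissues of the E8.5 mouse embryo. The genes were chosen by symbol in the platform annotation: the Hspa, Hspb, Hspd, Hspe, Hsph and Hsp90 names, the J proteins of the Dnaja, Dnajb and Dnajc series, the Cct subunits and Tcp1. Of 83 such symbols, 82 genes were measured by a probe that carries their symbol alone, out of 19938 genes in all. Hspa1b was represented only on a probe shared with Hspa1a. The 82 genes fell into 2 Hsp90 genes, 10 Hsp70 genes, 4 Hsp110-type and exchange factor genes, 9 small heat shock and associated genes, 2 genes of the mitochondrial chaperonin, 10 genes of the cytosolic chaperonin CCT, and 4, 13 and 28 J proteins of classes A, B and C.

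Chaperones keep unfolded protein from clumping and help it reach its folded form. Hsp70 binds short exposed stretches of a chain, J proteins bring it clients and trigger its ATP hydrolysis, and exchange factors reset it. Hsp90 finishes the folding of kinases and receptors, small heat shock proteins hold unfolded clients without ATP, and the barrel-shaped chaperonins enclose a chain while it folds. Some members are made at all times, and others are induced when unfolded protein builds up. In the cytosol this runs through the transcription factor Hsf1, which binds the heat shock element. In the endoplasmic reticulum it runs through factors that include Atf6 and Xbp1. Atf6 is one factor that acts at the ER stress response element.

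Neuroepithelium was on 3 arrays, neural crest on 5 and paraxial mesoderm on 3, all from E8.5 embryos of CD1, an outbred mouse stock, and no treatment or allele is named. Cells were cut with an Arcturus Veritas laser from cryostat sections of flash-frozen embryos, and their RNA was amplified (Ovation Pico) before hybridisation to Affymetrix arrays. The series title speaks of single cells, while the labels give neither the number of cells nor the embryo behind an array. The p-values measure the spread between these arrays, which may be technical, and fewer cells of a type cannot be told apart from less RNA per cell. Each deposited value is a linear ratio of an array to a reference of the same probe, with array medians of 0.991 to 1.01. A ratio near 1 on every array is what a silent gene and an evenly active gene both give, and no ratio is an expression level.

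The labels were only in part borne out by their markers. Of 12 crest markers, 5 stayed within 2-fold on all arrays and Snai1 was high on all 5 crest arrays and no other. The number high was 1, 4, 3, 1 and 5 on the crest arrays, 1, 2 and 2 on the neuroepithelium arrays and 0, 1 and 0 on the mesoderm arrays. Msx1, a crest and neural fold gene, had ratios of 24.7, 46.1 and 7.97 in neuroepithelium and 34.9 on mesoderm array 2, but among the crest arrays was high on array 3 alone (32.3). Of 11 neuroepithelium markers 7 stayed within 2-fold, whereas Epcam was high on all 3 neuroepithelium arrays. All 12 paraxial mesoderm markers stayed within 2-fold on all 11 arrays, as did all 8 endothelial ones. Primitive erythrocyte markers were high on paraxial mesoderm array 1 alone (7 of 8), and 5 of 10 surface ectoderm markers were high on paraxial mesoderm array 2, against 4, 6 and 4 on the neuroepithelium arrays. The share of these cells in the values below was not tested. No batch is named in the labels or the file.

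The promoters of a few members are shown first, to set members that hold a stress element beside their values. Not every stress-induced member holds one in this window: Hspa1a, Dnajb1 and Hspb1 had a window and no match to either motif searched. Promoter windows from RefSeq (build GRCm38.p6, 250 bases before to 50 after each start) were found for 68 of the 82 genes. The heat shock element was searched as GAA, TTC and GAA in a row with NN between each, or TTC, GAA and TTC spaced likewise, which is its reverse complement. It was present for 4 of the 68 members (5.88%), Hspd1, Hspe1, Hsph1 and Dnajb6, and for 0.662% of all 27025 genes with a window. The ER stress response element, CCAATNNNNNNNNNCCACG or its reverse complement, was present for 3 of 68 (4.41%), Hspa5, Hsp90b1 and Dnajc3, and for 0.137% of all genes. This second motif was chosen after the values were seen. A match is a run of letters and not a measured binding site.

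The stretch between Hspe1 and Hspd1 is shown with the matched bases in capitals. These neighbours lie head to head on chromosome 1, and the same pair of overlapping matches begins 89 and 84 bases before the start of Hspe1 and 144 and 139 bases before a start of Hspd1. The other stretches carry the ER element, also in capitals. The match of Hsph1 lies 15 or 36 bases after its start, depending on the start used, and is not printed.
Hspe1, chr1:55088053-55088082, plus strand: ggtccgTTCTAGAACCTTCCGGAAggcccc
Hspa5, chr2:34771995-34772073, plus strand: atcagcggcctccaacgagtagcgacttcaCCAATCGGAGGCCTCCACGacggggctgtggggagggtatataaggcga
Hsp90b1, chr10:86705503-86705686, minus strand: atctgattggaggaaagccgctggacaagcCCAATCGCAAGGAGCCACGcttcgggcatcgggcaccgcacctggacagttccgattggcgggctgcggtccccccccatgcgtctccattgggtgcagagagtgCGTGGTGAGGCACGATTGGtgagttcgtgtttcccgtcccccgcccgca
Dnajc3, chr14:118937797-118937875, plus strand: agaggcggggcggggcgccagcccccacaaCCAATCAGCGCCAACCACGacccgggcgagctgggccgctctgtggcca

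Of the 82 members, 39 (47.6%) stayed within 2-fold of their reference on all 11 arrays, against 71.8% of all genes. At least 4-fold high on 1 or more arrays were 31 members (37.8%, all genes 21.7%), and 14 members were at least 4-fold low, at a ratio of 0.25 or less, on 1 or more arrays (17.1%, all genes 4.77%). Hsp90b1, Hspa9, Hspd1, Dnajb1 and Dnajc15 did both. Of the 31 high members, 16 were high on a single array (51.6%, all genes 42.2%), 10 on 2 arrays and 5 on 3 or more. Among the 4318 high genes of the whole file, 983 were high on 2 arrays and 1514 on 3 or more. Of the 14 low members, 7 were low on a single array, against 230 of 952 low genes. Across tissues, 4 members were high on neuroepithelium arrays alone, 9 on crest arrays alone and 7 on mesoderm arrays alone, and 11 were high in several tissues. Crest had 5 arrays against 3 and 3, and this split was not counted over all genes. These counts therefore show no trait of the members. No member was at least 4-fold high on every array of a tissue, which 0.321% of all genes were in neuroepithelium, 0.0351% in crest and 0.0802% in mesoderm.

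**Figure D1:**
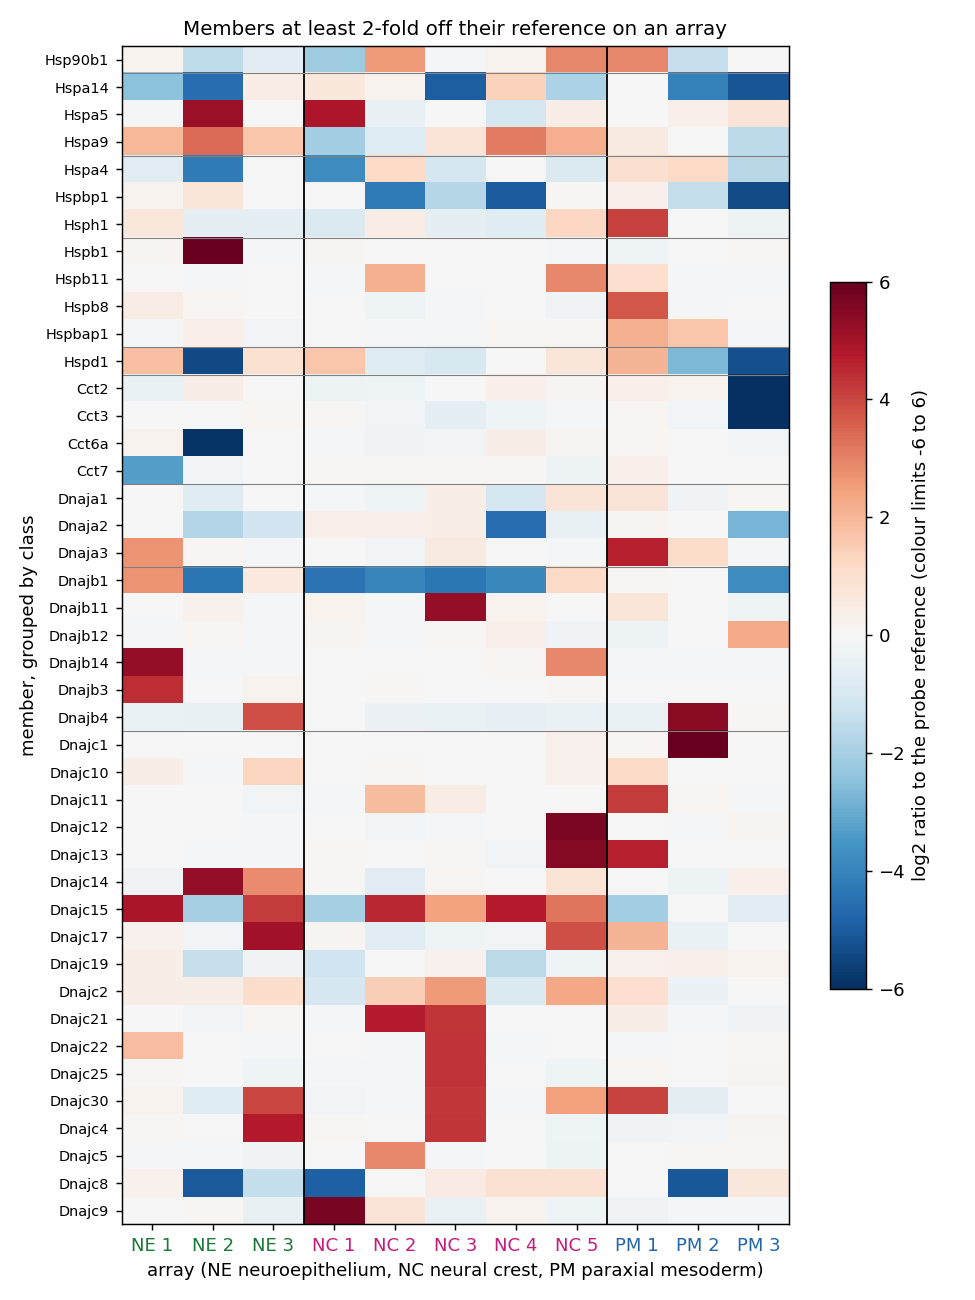
Log2 ratio of the 43 members that were at least 2-fold off their reference on some array (rows, grouped by class) on the 11 arrays (columns), with colours ending at -6 and 6. Deep red and deep blue cells are scattered over the columns of all 3 tissues, and no row is deep red across a whole tissue.

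Counts of high and low members differed between arrays of the same tissue. At least 4-fold high were 5, 4 and 6 members on the neuroepithelium arrays (6.10%, 4.88% and 7.32%, against 3.69%, 2.91% and 5.63% of all genes), 2, 5, 8, 2 and 10 on the crest arrays (2.44%, 6.10%, 9.76%, 2.44% and 12.2%, against 2.06%, 5.81%, 5.34%, 2.06% and 7.52%), and 10, 2 and 1 on the mesoderm arrays (12.2%, 2.44% and 1.22%, against 8.11%, 4.03% and 1.91%). The group means were 5.00 ± 1.00 (SD, n = 3), 5.40 ± 3.58 (n = 5) and 4.33 ± 4.93 (n = 3). Crest array 5 and mesoderm array 1, with 10 high members each, also had the highest shares over all genes. At least 4-fold low were 2, 6 and 0 members on the neuroepithelium arrays (2.44%, 7.32% and 0%, against 0.757%, 2.03% and 0.507% of all genes). On the crest arrays there were 5, 2, 2, 3 and 0 (6.10%, 2.44%, 2.44%, 3.66% and 0%, against 2.52%, 0.366%, 0.692%, 1.49% and 0.336%), and on the mesoderm arrays 1, 3 and 7 (1.22%, 3.66% and 8.54%, against 0.542%, 1.1% and 2.27%). Mesoderm array 3, neuroepithelium array 2 and crest array 1 thus held most of the low values. The median member ratio lay between 0.978 and 1.02 on every array.

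**Figure D2:**
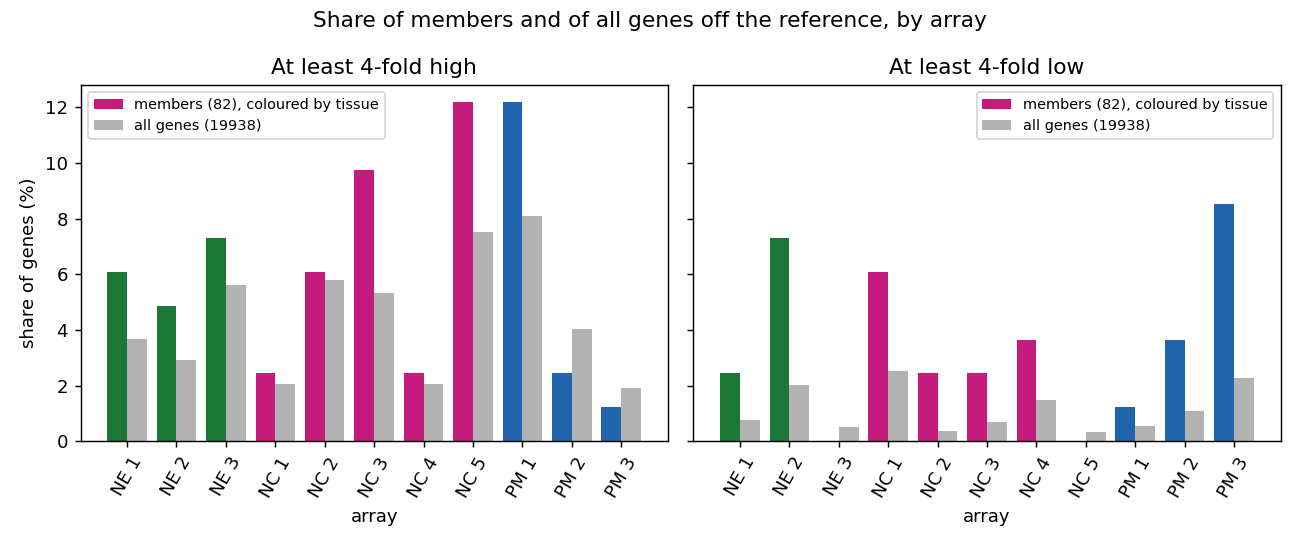
Percent of the 82 members (coloured bars, green neuroepithelium, magenta neural crest, blue paraxial mesoderm) and of all 19938 genes (grey bars) at least 4-fold high (left) or low (right) on each array. The highest member shares, 12.2%, fall on neural crest array 5 and paraxial mesoderm array 1, which also have the highest shares of all genes.

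Among the Hsp90 genes measured, the cytosolic Hsp90aa1 was steady and the endoplasmic reticulum form Hsp90b1 was not. The class list also held Hsp90ab1, which was not among the symbols found, so nothing is said of it here. Hsp90aa1 lay between 0.733 and 1.29 on all arrays, and its other probes between 0.752 and 1.25. Hsp90b1 had ratios of 1.16, 0.352 and 0.619 in neuroepithelium, 0.229, 5.86, 0.909, 1.17 and 7.43 in crest, and 7.49, 0.384 and 1 in mesoderm. It was thus high on crest arrays 2 and 5 and on mesoderm array 1, low on crest array 1, and overlapping between all tissues. On mesoderm array 1 the lectin chaperones Calr (8.16) and Canx (8.06), the disulphide isomerase Pdia3 (16.3) and the exchange factor Hyou1 (5.41), all of the endoplasmic reticulum, were high as well. Other genes of this compartment on the list of folding genes were not high there: Pdia6 (0.333), Pdia4 (0.659), Serpinh1 (0.723) and Sil1 (0.799). Calr was also high on crest array 1 (4.44). The erythrocyte markers were high on this same array, and their part in these values was not tested.

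Hspa5 (BiP), the Hsp70 of the endoplasmic reticulum and the usual partner of Hsp90b1, followed another set of arrays. Its ratios were 0.952, 36.3 and 0.98 in neuroepithelium, 29.2, 0.724, 0.985, 0.493 and 1.33 in crest, and 1, 1.24 and 1.7 in mesoderm. Hspa5 was therefore high on neuroepithelium array 2 and crest array 1, where Hsp90b1 stood at 0.352 and 0.229. Across the 11 arrays the log2 ratios of the pair had a Pearson correlation of -0.58, given as a description. Pdia4, another isomerase of this compartment, was high where Hspa5 was (14.4 and 36.0) and on neuroepithelium array 1 (15.2). The cochaperone Dnajb11 was high on crest array 3 alone (38.9, the other arrays 0.848 to 1.66). Dnajc3, which inhibits the stress kinase Perk, lay between 0.876 and 1.15, and Dnajb9 between 0.953 and 1.17. The 3 promoters with the ER element printed above therefore belong to genes with 3 different array patterns.

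**Figure D3:**
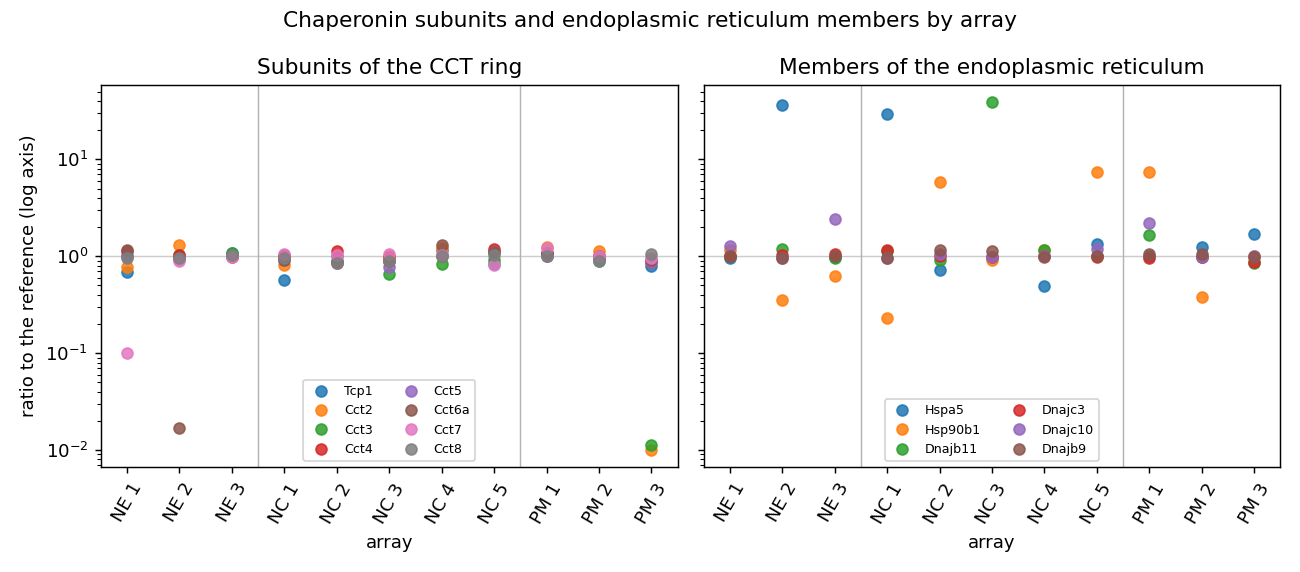
Ratio to the reference on a log axis for the 8 measured subunits of the CCT ring (left) and 6 members of the endoplasmic reticulum (right) on the 11 arrays. Single CCT subunits drop to between 0.01 and 0.0999 on neuroepithelium arrays 1 and 2 and mesoderm array 3, while Hspa5 and Hsp90b1 are high on different arrays.

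Of the 10 Hsp70 genes, 7 stayed within 2-fold throughout, at 0.835 to 1.49. These include Hspa1a, the form induced by heat, at 0.846 to 1.48, and the constitutive Hspa8 at 0.835 to 1.11. A further Hspa8 probe ran from 0.291 on crest array 3 to 1.52 on crest array 1, so its probes did not move together. Probes with several symbols were assigned to no member, and some went far from 1. The probe shared by Hspa1a and Hspa1b lay between 0.682 and 1.31. Of the 2 probes shared by Hspa8 and the small nucleolar RNAs Snord14c and Snord14d, the first had 44.8 on neuroepithelium array 3, 66.4 on crest array 2 and 37.0 on crest array 3, and the second was alike. The probe shared by Dnajb6 and Gm4247 with the highest ratios had 54.6 on neuroepithelium array 1, 82.8 on crest array 3 and 78.4 on mesoderm array 3. A probe shared by Dnajb14 and Pin4 ran from 0.117 on crest array 4 to 11.3 on crest array 3. Calling Hspa1a and Dnajb6 steady therefore rests on the probes that carry their symbol alone. For Hspa8 it rests on the chosen probe and another at 0.771 to 1.08, since the further probe above reached 0.291. By platform number that further probe lies next to the probes shared with the small nucleolar RNAs, and the chosen probe does not. Which probe reads Hspa8 best was not tested, so Hspa8 cannot be called steady with certainty.

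Hspa9, the mitochondrial Hsp70 that pulls imported chains through the inner membrane, was above its reference on every neuroepithelium array (3.95, 10.4 and 3.18). In crest it ranged widely (0.242, 0.576, 1.68, 8.52 and 4.59), and in mesoderm it had 1.43, 1 and 0.338. All 3 neuroepithelium arrays lay above all 3 mesoderm arrays, while crest overlapped with both. It was the only member at least 2-fold high on every array of a tissue (0.522% of all genes in neuroepithelium, 0.0552% in crest and 0.11% in mesoderm).

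Hspa14, a ribosome-bound Hsp70 that meets chains as they emerge, was near its reference on some arrays of each tissue and low on others. It had 0.182, 0.0418 and 1.36 in neuroepithelium, 1.54, 1.18, 0.033, 2.63 and 0.269 in crest, and 1, 0.0603 and 0.0288 in mesoderm. Low values thus occurred on 5 of the 11 arrays. Crest array 5, at 0.269, was just outside that limit.

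The 4 Hsp110-type and exchange factor genes differed among themselves. Hspbp1, which removes nucleotide from Hsp70, was near its reference on the neuroepithelium arrays (1.16, 1.63 and 1). It had 1.02, 0.0524, 0.305, 0.0317 and 1.06 in crest and 1.22, 0.373 and 0.0238 in mesoderm. Hspa4 was low on neuroepithelium array 2 (0.0548) and crest array 1 (0.0727) and between 0.311 and 2.26 elsewhere. Hsph1, an Hsp110 induced by heat, was high on mesoderm array 1 (17.4) and between 0.541 and 2.36 on the other 10 arrays. Hspa4l was steady at 0.935 to 1.35.

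Small heat shock and associated genes were high on 1 or 2 arrays (4 of 9) and low on none. Hspb1 (Hsp27), an actin-linked chaperone induced by stress, had 78.3 on neuroepithelium array 2 and 0.831 to 1.13 on the other 10 arrays, and its second probe had 76.7 there. This was the highest ratio of any member. Of 18 immediate early genes, 3 were high on that array (Ier2 58.2, Klf6 36.7 and Junb 7.92), as were 2.91% of all genes. Hspa5 was high there too, but Hspa1a (1.29), Dnajb1 (0.0477) and Hsph1 (0.685) were not. Klf6 was high on no other array (0.962 to 1.04), whereas high Ier2 and Junb were not particular to that array. Ier2 had 57.2 on crest array 1 and Junb 17.6 on neuroepithelium array 1, where Hspb1 had 1.13 and 1.11. Hspb8, which works with Bag3 in the removal of clients, was high on mesoderm array 1 (13.1, the other arrays 0.834 to 1.37), where Bag3 had 0.94. Hspb11, a part of the transport machinery of cilia, reached 4.37 on crest array 2 and 7.37 on crest array 5. The other 5 genes of the class, Hspb2, Hspb3, Hspb6, Hspb7 and Hspb9, lay between 0.775 and 1.24.

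Of the 12 chaperonin genes, 5 were low on 1 or more arrays: Cct2, Cct3, Cct6a and Cct7 on 1 array each and Hspd1 on 3. CCT is a double ring that folds actin and tubulin and needs 8 different subunits, all of which were measured. Cct4, Cct5, Cct8 and Tcp1 stayed within 2-fold, with Tcp1 at 0.565 to 1.17. Cct2 had 0.01, the lowest ratio in the file, on mesoderm array 3 and 0.77 to 1.32 on the other 10 arrays. Cct3 stood at 0.0111 on that same array and at 0.657 to 1.09 elsewhere. The exact ratio of 0.01 recurs for further probes of Dnaja1 and Hspd1, and whether it is a floor of the file was not tested. Cct6a had 0.017 on neuroepithelium array 2 and 0.864 to 1.31 elsewhere, and Cct7 had 0.0999 on neuroepithelium array 1 and 0.804 to 1.22 elsewhere. No subunit was high on any array, and no crest array was low for any. On each of these 3 arrays, the subunits that were not low lay between 0.687 and 1.32. The germline forms Cct6b and Cct8l1 lay between 0.893 and 1.1.

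The mitochondrial chaperonin is built from Hspd1 (Hsp60), which forms the barrel, and Hspe1 (Hsp10), which forms its lid, and both genes are read from the shared stretch printed above. Hspd1 had ratios of 3.46, 0.0235 and 1.9 in neuroepithelium, 3.18, 0.611, 0.532, 1 and 1.66 in crest, and 4.08, 0.156 and 0.0261 in mesoderm. It was low on neuroepithelium array 2 and on mesoderm arrays 2 and 3. Hspe1 lay between 0.619 and 1.12 on all 11 arrays, and its second probe between 0.539 and 1.15. The second Hspd1 probe was also low on neuroepithelium array 2 (0.01) and mesoderm array 2 (0.0874), but it had 1.18 on mesoderm array 3. The low value on mesoderm array 3 thus rests on 1 probe. On crest array 2 the second probe was low (0.218), where the chosen probe had 0.611. On neuroepithelium array 1, crest array 1 and mesoderm array 1 the second probe had 1.21, 0.984 and 1.54. The chosen probe had 3.46, 3.18 and 4.08 there, so the high value on mesoderm array 1 also rests on 1 probe. Of the 4 members with the heat shock element, Hspe1 and Dnajb6 (0.863 to 1.24 on the probe with its symbol alone) were high on no array. Hsph1 was high on mesoderm array 1 alone (17.4), as was the chosen probe of Hspd1 (4.08).

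Dnajb1, the J protein that heat induces and the main partner of cytosolic Hsp70, had the largest number of low values. It had 6.44, 0.0477 and 1.49 in neuroepithelium, 0.0468, 0.0638, 0.0497, 0.0684 and 2.19 in crest, and 1.05, 1 and 0.0727 in mesoderm. It was low on 6 arrays, among them crest arrays 1 to 4. Of class A, Dnaja2 was low on crest array 4 (0.0416) and mesoderm array 3 (0.146), while the mitochondrial Dnaja3 was high on neuroepithelium array 1 (6.5) and mesoderm array 1 (25.4). Dnaja1 lay between 0.489 and 1.71, yet its second probe had 0.01 on crest array 4.

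Other class B proteins were high on 1 or 2 arrays each. Dnajb14, of the endoplasmic reticulum membrane, was high on neuroepithelium array 1 (38.8) and crest array 5 (7.34). Its relative Dnajb12 reached 4.88 on mesoderm array 3 alone, the only member high there. Dnajb4 was high on neuroepithelium array 3 (14.8) and mesoderm array 2 (43.0), and Dnajb3, known from testis, on neuroepithelium array 1 (21.8). The remaining 7 genes of the class stayed within 2-fold.

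Class C proteins share only the J domain and serve many compartments. Of 28 genes, 15 were high on 1 or more arrays and 10 were steady. Dnajc15, a J protein of the mitochondrial import machinery, was far above or below its reference on most arrays, with 30.2, 0.254 and 18.3 in neuroepithelium, 0.251, 22.8, 5.4, 26.3 and 9.3 in crest, and 0.243, 1 and 0.619 in mesoderm. It was high on 6 arrays, none of them mesodermal. Its relative Dnajc19, of the same import motor, lay between 0.326 and 1.33.

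Several class C genes were high on 1 or more crest arrays. Dnajc9, a chaperone of histones, had 51.5 on crest array 1 and 0.744 to 1.72 elsewhere. Dnajc12, a cochaperone of aromatic amino acid hydroxylases, had 50.9 on crest array 5 and 0.903 to 1.14 elsewhere. Dnajc5, the cysteine string protein of secretory vesicles, reached 7.28 on crest array 2. Crest array 3 was high for Dnajc2 (5.79, and 5.01 on crest array 5), Dnajc4 (19.2), Dnajc21 (19.9), Dnajc22 (20.5), Dnajc25 (20.1) and Dnajc30 (19.2). Of these, Dnajc21, which serves ribosome assembly, was high on crest array 2 as well (25.9), Dnajc4 on neuroepithelium array 3 (26.7), and Dnajc30, of mitochondria, on neuroepithelium array 3 (16.0), crest array 5 (5.46) and mesoderm array 1 (16.7).

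Other class C genes were high or low on neuroepithelium and mesoderm arrays. Dnajc1, a J protein of the endoplasmic reticulum membrane, had 65.9 on mesoderm array 2 and 0.974 to 1.19 on the other 10 arrays. Dnajc14, which escorts receptors out of the endoplasmic reticulum, had 0.852, 38.7 and 7.08 in neuroepithelium, 0.652 to 1.76 in crest and 0.811 to 1.24 in mesoderm. Dnajc17, linked to splicing, was high on neuroepithelium array 3 (32.9), crest array 5 (14.5) and mesoderm array 1 (4.16), and Dnajc11, of the mitochondrial membrane, on mesoderm array 1 (18.1). Dnajc8, a spliceosome-linked member, was low on neuroepithelium array 2 (0.0303), crest array 1 (0.033) and mesoderm array 2 (0.0295).

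Dnajc13, a large J protein that acts on clathrin at endosomes, was read by 15 probes, and they did not move together. The probe with the highest mean was high on crest array 5 (45.2) and mesoderm array 1 (25.6). In order of platform number, the first 7 probes were high on mesoderm array 1 alone (5.75 to 22.4) and stood at 0.925 to 1.09 on crest array 5. The next was high on both. The following 4 were high on crest array 5 alone (12.3 to 53.0) and stood at 0.917 to 1.06 on mesoderm array 1. The last 3 were high on neither. No other array was high for any of the 15 probes.

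**Figure D4:**
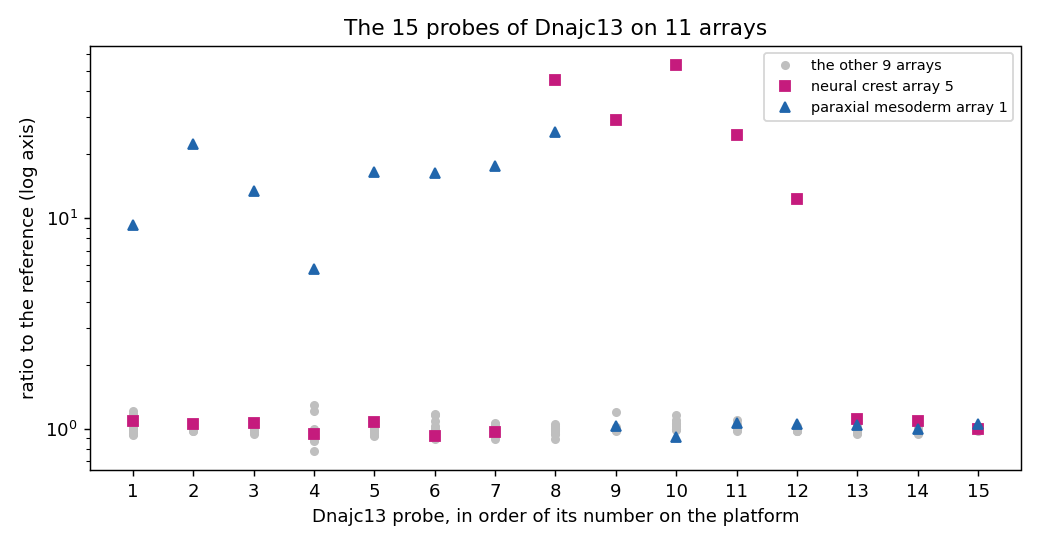
Ratio to the reference (log axis) of the 15 Dnajc13 probes in order of their platform number, for neural crest array 5 (squares), paraxial mesoderm array 1 (triangles) and the other 9 arrays (grey points). Mesoderm array 1 is high on probes 1 to 8 and crest array 5 on probes 8 to 12, so that 1 probe is high on both.

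Among the 40 members that were high or low on some array, pairs shared little: the median Pearson correlation over 780 pairs and 11 arrays was 0.05, as a description. Cct2 and Cct3 (0.99), both low on mesoderm array 3, and Dnajb11 and Dnajc25 (0.99), both high on crest array 3, came closest. Such values rest on a single array.

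Neural crest was compared with neuroepithelium, the layer from which crest cells leave. No member passed in limma (adjusted p = 1.00 for each, 5 against 3 arrays). Of all genes 0.0301% passed, 0.01% higher and 0.0201% lower in crest. At unadjusted p under 0.05 there was 1 member of 82 (1.22%, all genes 2.79%). Of the 82, 43 were higher and 39 lower in crest, with a median log2 difference of 0.01 against 0.00 over all genes. No member separated the tissues without overlap (0% of members, 2.98% of all genes, 1.45% higher and 1.53% lower).

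The largest differences in that comparison were those of Dnajb1 (log2 difference -2.72, SE 1.88), Dnajc14 (-2.55, SE 1.00) and Hspbp1 (-2.47, SE 1.55), all lower in crest on average. Each rests on a few arrays. For Dnajb1 the value moved to -4.72 without neuroepithelium array 2 and to -1.18 without neuroepithelium array 1, and for Dnajc14 to -1.22 without neuroepithelium array 2 and -3.98 without neuroepithelium array 1. Dnajc14 was the member with unadjusted p under 0.05 (0.0315 in limma, adjusted p = 1.00, range over 21 other settings 0.218 to 1).

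The second comparison set neural crest against paraxial mesoderm, a tissue that lies beside it. Again no member passed in limma (adjusted p = 1.00 for each, 5 against 3 arrays), while 0.01% of all genes did. At unadjusted p under 0.05 there was 1 member (1.22%, all genes 2.89%). Of the 82, 44 were higher in crest and 38 lower, with a median log2 difference of 0.01 against 0.00 over all genes. Only Dnajb14 separated the tissues (1.22% of members; 2.66% of all genes, 1.46% higher and 1.2% lower), with 0.978 to 7.34 in crest and 0.93, 0.96 and 0.962 in mesoderm, a log2 difference of 0.67 (SE 1.25) that was 0.10 without crest array 5.

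Dnajc15 had the largest difference between these tissues (log2 difference 3.49, SE 1.91, higher in crest, limma adjusted p = 1.00, range over the other settings 0.708 to 1). It overlapped because crest array 1 was as low as mesoderm array 1. Hspa14 (2.14, SE 1.80) and Hspd1 (2.12, SE 1.95) followed. The Hspd1 difference is that of the chosen probe, which had 0.0261 on mesoderm array 3, where the second probe had 1.18. The Hspd1 value was 0.48 without mesoderm array 3 and 4.12 without mesoderm array 1, and the Hspa14 value ran from 1.11 without mesoderm array 3 to 3.67 without mesoderm array 1.

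Paraxial mesoderm was last compared with neuroepithelium. No member passed in limma (adjusted p = 1.00 for each, 3 against 3 arrays), while 0.015% of all genes did, all lower. At unadjusted p under 0.05 there were 3 members (3.66%, all genes 2.48%), Cct6b, Dnajc14 and Hspbap1. Of the 82, 45 were higher in mesoderm and 37 lower (median log2 difference 0.02, all genes 0.00). Groups did not overlap for 5 members (6.10%, all genes 6.85%): Dnajc5 and Dnajc13 were higher (2.44%, all genes 2.82%), and Hspa9, Hspa1l and Dnajc3 lower in mesoderm (3.66%, all genes 4.02%).

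Of these 5, Hspa9 had the largest difference (log2 difference -2.69, SE 1.28, unadjusted p = 0.0660 in limma, range of adjusted p over the other settings 0.757 to 1). Its difference stayed between -3.13 and -2.08 with any 1 array left out. For Dnajc13 (1.63, SE 1.72) the value was 0.07 without mesoderm array 1. Dnajc5 (0.15, SE 0.73), Dnajc3 (-0.13, SE 0.07) and Hspa1l (-0.12, SE 0.06) differed by little. Larger on average, but overlapping, was Dnajc15 (-3.29, SE 2.14), which ran from -5.47 without neuroepithelium array 2 to -2.02 without neuroepithelium array 1. Dnajc14 (-2.61, SE 1.12) went to -1.28 without neuroepithelium array 2 and to -4.04 without neuroepithelium array 1.

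Hspbap1, a protein that binds Hspb1, was picked out after its values were seen, because it passed once an array was left out. It had 0.962, 1.22 and 0.901 in neuroepithelium, 0.942 to 1.09 in crest, and 4.37, 3.14 and 0.941 in mesoderm. It was thus above all other tissues on mesoderm arrays 1 and 2 and within their range on array 3. With all arrays its log2 difference was -1.21 (SE 0.42) for crest minus mesoderm and 1.21 (SE 0.47) for mesoderm minus neuroepithelium, with adjusted p = 1.00 in limma. Without mesoderm array 3 these became -1.86 and 1.86 with adjusted p = 0.00232 and 0.00444 in limma, the only setting in which any member passed. Erythrocyte markers were high on mesoderm array 1 (7 of 8) and surface ectoderm markers on mesoderm array 2 (5 of 10) and array 3 (1 of 10, Krt8 at 30.5), and the part of these cells was not tested.

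**Figure D5:**
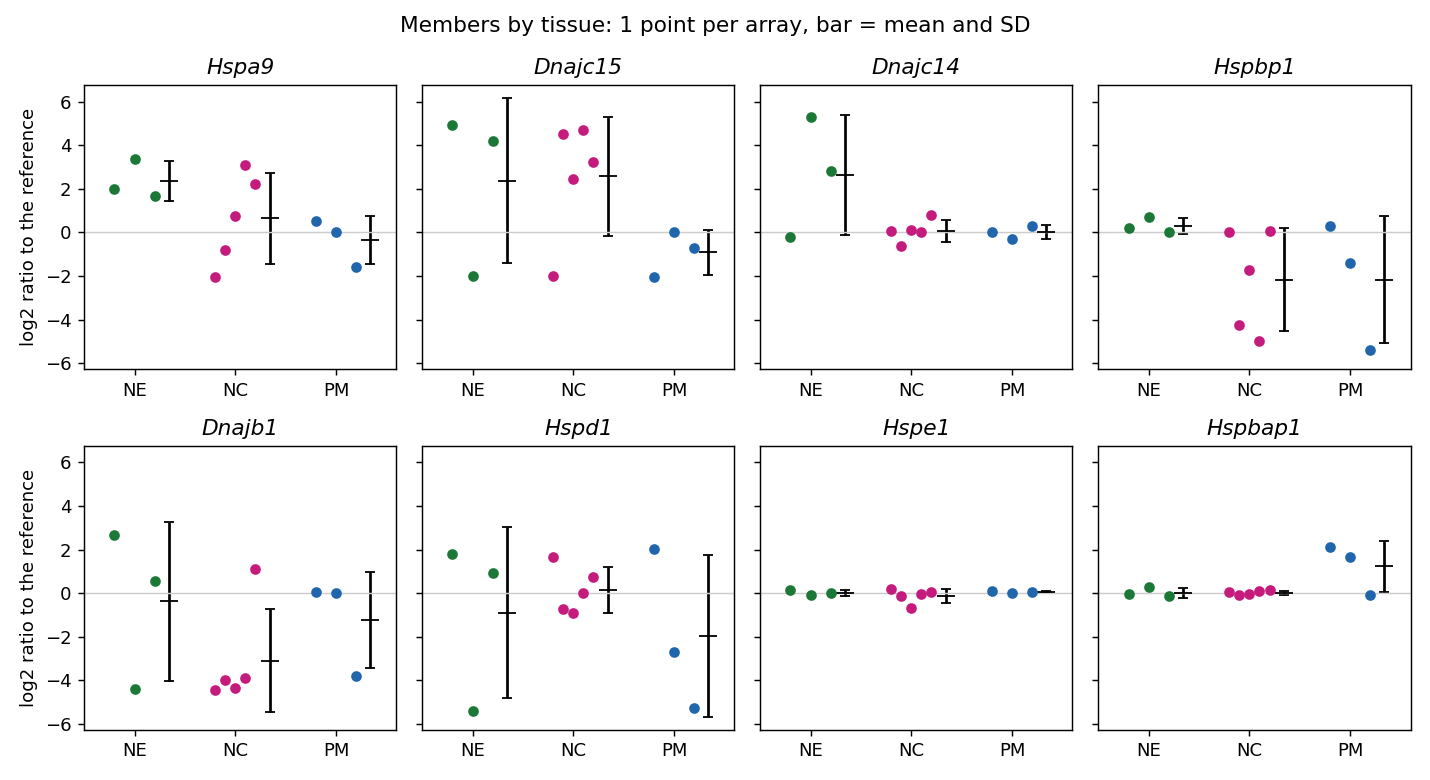
Log2 ratio of 8 members on neuroepithelium (NE, 3 arrays), neural crest (NC, 5) and paraxial mesoderm (PM, 3), with 1 point per array and the mean and SD beside them. Of these 8, only Hspa9 sets all neuroepithelium arrays above all mesoderm arrays, and Hspe1 stays near 0 where Hspd1 spreads from 4.08 down to a ratio of 0.0235.

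Other genes of protein folding, 52 measured of 54 listed, were set beside the members. None passed in limma in any of the 3 comparisons. In limma 0, 1 and 0 of them had an unadjusted p under 0.05, against 2.79%, 2.89% and 2.48% of all genes. The 52 had median log2 differences of 0.05, 0.08 and -0.02 in the same order. Of the 52, 25 (48.1%) were high and 17 (32.7%) low on 1 or more arrays, and 11 (21.2%) were steady. The shares were 37.8%, 17.1% and 47.6% of the members and 21.7%, 4.77% and 71.8% of all genes. Groups did not overlap for 1 gene in the first comparison (Bag5, log2 difference 1.45, higher in crest), 1 in the second (St13, 2.61, higher in crest) and 2 in the third (Bag5, 0.71, and Calr, 1.31, both higher in mesoderm). These are 1.92%, 1.92% and 3.85% of the 52, each below the share of all genes (2.98%, 2.66% and 6.85%). Bag5 and St13 are cochaperones of Hsp70.

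Prefoldin, which hands clients to CCT, had Pfdn1 low on crest array 1 (0.02) and mesoderm array 3 (0.04), and Pfdn2 low on crest arrays 1 and 4 (0.02 each). Other prefoldin subunits were high instead. Pfdn4 was high on neuroepithelium arrays 1 (15.9) and 3 (4.37), crest arrays 2 (32.9), 3 (5.87) and 5 (36.5) and mesoderm array 2 (7.19). Pfdn6 was high on neuroepithelium array 1 (4.36), crest arrays 2 (23.1) and 5 (19.7) and mesoderm arrays 1 (28.8) and 3 (25.3). Vbp1 was high on neuroepithelium array 3 (12.2), crest arrays 2 (10.9) and 5 (16.9) and mesoderm array 1 (7.18), and Pfdn5 was low on mesoderm array 1 (0.221). Grpel1, the exchange factor of Hspa9, was low on neuroepithelium array 2 (0.06), crest array 1 (0.03) and mesoderm array 3 (0.04), and Hspa9 had 10.4, 0.242 and 0.338 there. Stip1, which links Hsp70 to Hsp90, was low on neuroepithelium array 2 (0.09) and on crest arrays 1 (0.02) and 4 (0.06). Of the stress regulators, Ddit3 was high on neuroepithelium array 1 alone (23.8), and Xbp1 on neuroepithelium arrays 1 (33.5) and 3 (19.4) and crest arrays 3 (9.03) and 5 (14.6), none of which was high for Hspa5. Atf4 was high on neuroepithelium array 3 (8.37) and on crest arrays 2 (7.28), 3 (4.49), 4 (12.8) and 5 (5.55), and low on mesoderm array 3 (0.239). Atf6 had 2.16 on crest array 5 and 0.854 to 1.15 on the other arrays. Hsf2, Hsf4 and Hsf5 were steady at 0.87 to 1.20, and Hsf1 is not analysed here.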

How the data were processed

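Laser-captured tissue was measured on 11 arrays, grouped by their titles. The submitters' processing notes name RMA, with no version, and mm9. Deposited values are linear ratios to a reference of each probe, made by the authors in a way not given in the sources used here. Of 35557 probes, 28856 had values, and 21789 of these carried 1 symbol (1621 several, 5446 none). RefSeq names (GRCm38.p6, names and promoters only) matched 21698 probes and changed 0. Per gene the probe with the highest mean log2 ratio was used, a choice that favours high ratios, which gave 19938 genes.

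Log2 was taken without a pseudocount. The 3 tissue means were fitted over all 11 arrays with limma 3.58.1 (R 4.3.3, lmFit and eBayes without an intensity trend, since ratios hold no intensity), tested on simulated data, with Benjamini-Hochberg adjustment over all genes and a threshold of 0.05. All p-values are two-sided. The members and lists were chosen with earlier results of these data known. Named were members that passed, the largest differences and those without overlap per comparison, the highest and lowest per array, the Hsp90 and chaperonin genes, and textbook genes of the stress responses. Other members, Hspbap1 among them, were picked after their values were seen. Protein sequences were not used here.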

Additional observations from a re-analysis of the deposited data

Results flagged for a closer look

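Among the 43 members named by the fixed rule, 19 had 1 crest array set apart from the other 4 by more than 0.71 of the whole range of their log2 ratios. Chance flags about 1 in 20 groups, but that rate does not apply here, since many of these members were named for a high or low value on 1 array. The same was so for 22 of all 82 members (26.8%) and for 15% of all genes. The flag marks a gap from the other 4 crest arrays and not a ratio 4-fold off the reference. Set apart upward on crest array 5 were Dnajc12 (50.9), Dnajc13 (45.2), Dnajc17 (14.5), Dnajb14 (7.34), Dnajb1 (2.19, the others 0.0684 or less) and Dnajc1 (1.19). On crest array 1 these were Dnajc9 (51.5), Hspa5 (29.2), Hspa1a (1.48), Dnajc3 (1.15) and Dnajb4 (1). On crest array 3 they were Dnajb11 (38.9), Dnajc22 (20.5), Dnajc4 (19.2) and Dnaja3 (1.45), and on crest array 2 Dnajc5 (7.28). Set apart downward were Dnajc8 on crest array 1 (0.033), Dnaja2 on crest array 4 (0.0416) and Cct7 on crest array 5 (0.804). Hspa1a and Dnajc3 stayed within 2-fold on all arrays.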

How the results depend on the processing

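No member passed in any of the 3 comparisons under any of the 10 other settings with all arrays (intensity trend, robust eBayes, 2 scalings, pseudocount of 0.1, filter, mean of all probes, array weights, 2 tissues alone, replicate block). With 1 array left out, members that passed ranged from 0 to 0, 0 to 1 and 0 to 1 in the order of the comparisons. Members without overlap ranged from 0 to 3, 1 to 6 and 5 to 15, since fewer arrays overlap less. With quantile scaling 2 members were without overlap between crest and mesoderm. High values over all arrays numbered 55 at 4-fold and 36 at 8-fold, and low values 31 at 4-fold and 49 at 2-fold. All 14 differences tracked kept their sign, but they were picked from these data as the largest or as those without overlap. For those without overlap, leaving out an array could not change the sign. Over all genes, 6, 2 and 3 passed, against 2, 0 and 2 with the trend, 11, 2 and 5 with 2 tissues alone, and 5 to 19, 1 to 43 and 3 to 39 with 1 array left out. The replicate block left the member counts at 0 (all genes 6, 3 and 2). Same-numbered arrays share only a number, with correlations of their deviations from -0.153 to 0.0505 over 9 pairs. The number of arrays limits the precision.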
